A study of Mus musculus with 8 samples.

Results

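The 9 genes described here belong to the intrinsic death machinery: Bcl2l1, Mcl1, Bcl2, Bak1, Bax, Bid, Bad, Bcl2l11 and Casp9. They were chosen by gene symbol, with earlier results of these data known, and are 9 of the 55487 genes in the deposited tables. All 9 had enough reads to be tested between the groups. The RNA came from platelets of 8 male mice aged 13 weeks, 4 labelled Dnmt3a+/-, meaning heterozygous for the DNA methyltransferase gene Dnmt3a, and 4 WT littermates. Blood was taken by cardiac puncture in both groups, platelets were spun out of platelet-rich plasma, and red cells and leukocytes were removed on beads against Ter119 and CD45. Each mouse gave 1 library of polyadenylated RNA, and the sources used here do not state how the Dnmt3a allele was produced. No treatment is given for either group. The study's title concerns DNMT3A and the fate of megakaryocyte-biased stem cells, and the comparison here asks whether the platelet death genes and their balance differed between the genotypes.

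Platelets have no nucleus, and their transcripts are inherited from megakaryocytes. Guardian proteins such as BCL-XL (the product of Bcl2l1), MCL-1 and BCL-2 hold the effectors BAK and BAX in check at the mitochondrial outer membrane. BH3-only proteins, among them BID, BAD and BIM (the product of Bcl2l11), sense stress and tip that balance, and released cytochrome c then lets APAF1 activate caspase-9. In platelets, BCL-XL restraining BAK is the known timer of lifespan: loss or inhibition of BCL-XL shortens it and causes thrombocytopenia, and loss of BAK prolongs it. Levels here are of RNA, and neither protein nor lifespan was measured in these libraries.

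Among the 9 genes, Bcl2l1 and Bid carried the most transcripts and Bcl2 was the lowest of the 3 guardians. The stretches upstream of these 3 genes are therefore shown, since they lie at the regulatory ends of the genes that set the contrast in levels. Each is 200 bases, from 250 to 51 bases before a RefSeq start in GRCm38.p6, holds no annotated exon, is written 5′ to 3′ on the gene's own (minus) strand, and has every CG, the dinucleotide that DNA methyltransferases act on, in capitals. The windows are chr2:152831779-152831978 for the outermost start of Bcl2l1, chr6:120916875-120917074 for Bid and chr1:106714341-106714540 for Bcl2.
Bcl2l1: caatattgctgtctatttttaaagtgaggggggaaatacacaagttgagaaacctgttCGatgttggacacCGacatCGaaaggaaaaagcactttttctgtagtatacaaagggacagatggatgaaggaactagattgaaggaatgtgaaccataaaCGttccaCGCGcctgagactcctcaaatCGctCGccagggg
Bid: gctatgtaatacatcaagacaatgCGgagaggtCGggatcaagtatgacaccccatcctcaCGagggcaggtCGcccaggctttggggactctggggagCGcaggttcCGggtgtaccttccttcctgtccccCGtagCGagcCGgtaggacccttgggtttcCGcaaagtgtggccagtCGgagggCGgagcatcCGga
Bcl2: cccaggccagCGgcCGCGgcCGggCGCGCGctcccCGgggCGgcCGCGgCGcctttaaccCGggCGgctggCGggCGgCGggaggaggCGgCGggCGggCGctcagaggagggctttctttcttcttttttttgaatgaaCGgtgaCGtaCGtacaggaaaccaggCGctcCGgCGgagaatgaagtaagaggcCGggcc
CG was counted once per position, since its reverse complement is also CG. The window of Bcl2l1 held 8, which was more than in 65.0% of the 32851 such windows in the mouse table. That of Bid held 13 (more than in 77.9%) and that of Bcl2 held 28 (more than in 97.0%). The median window held 4, and 89.1% held at least 1. The windows of 2 further Bcl2l1 starts, which lie wholly in annotated exons, held 0 and 10, and that of the third guardian, Mcl1, held 21. Those of the remaining members held 4 (Bak1), 8 (Bax), 19 and 15 (Bad), 20 and 21 (Bcl2l11) and 19 (Casp9). The Bak1 window lies wholly in annotated exons, and the Bad window with 15 holds 180 exon bases. DNA methylation was not measured in these libraries, so the counts describe sequence alone. Any relation of the CG counts to RNA level was not tested. All 9 genes were found in the RefSeq table.

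Several facts about the libraries bear on every value. Total counts ran from 15185218 to 22160394 per library. Dnmt3a stood at 21.1, 22.1, 19.8 and 18.2 CPM (counts per 1000000 after TMM scaling) in WT replicates 1 to 4, and at 9.96, 11.5, 24.2 and 19.5 CPM in the libraries labelled Dnmt3a+/- replicates 1 to 4. Replicates 3 and 4 labelled Dnmt3a+/- therefore lay within or above the WT range. In TPM (transcripts per 1000000, corrected for gene length) they held 10.12 and 10.86, above the WT range of 5.6 to 8.91. Whether labelling, the kind of allele or spread between mice accounts for this was not tested. The 14 platelet markers summed to between 47460 and 57460 TPM in every library. Of the 16 red cell markers 15 were in the tables, and they summed to 46890 TPM in WT replicate 1 and to between 4838 and 10970 in the other 7 libraries. Rhag, of the red cell list, was at 0 in all 8 libraries. Mitochondrially encoded genes took 24.8% of counts in WT replicate 3 and between 16.7% and 19.0% in the others. Lymphocyte markers summed to between 15.2 and 26.3 TPM, with Cd3e and Cd3g at 0 in all libraries, and myeloid markers to between 1.28 and 5.74 TPM, with Camp at 0. Hepatocyte markers summed to between 16.5 and 1000 TPM in WT and between 2.47 and 96.9 in the other group, and their part in any value below was not tested. In a bulk preparation such as this one, fewer cells of a type and less RNA per cell cannot be told apart.

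The 9 genes spanned a wide range of transcript levels and fell into tiers. Bcl2l1 averaged 2.05 times the level of Bid on the TPM scale, and Bid averaged 8.97 times the level of the next gene, Bax. Both steps held in 8 of 8 libraries, with ranges that did not overlap. Bax, Bad and Bak1 formed a middle tier in which neighbours overlapped: Bax exceeded Bad in 6 of 8 libraries, and Bad exceeded Bak1 in 3. Mcl1 lay below Bak1 and above Bcl2l11 in all 8 libraries, with ratios of the mean levels of 2.15 and 3.94. Bcl2l11, Bcl2 and Casp9 made up the lowest tier, again with overlapping ranges. Among the 18576 genes with TPM above 0 in any library, Bcl2l1 ranked 597 and Casp9 ranked 8353 by mean TPM.

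**Figure D1:**
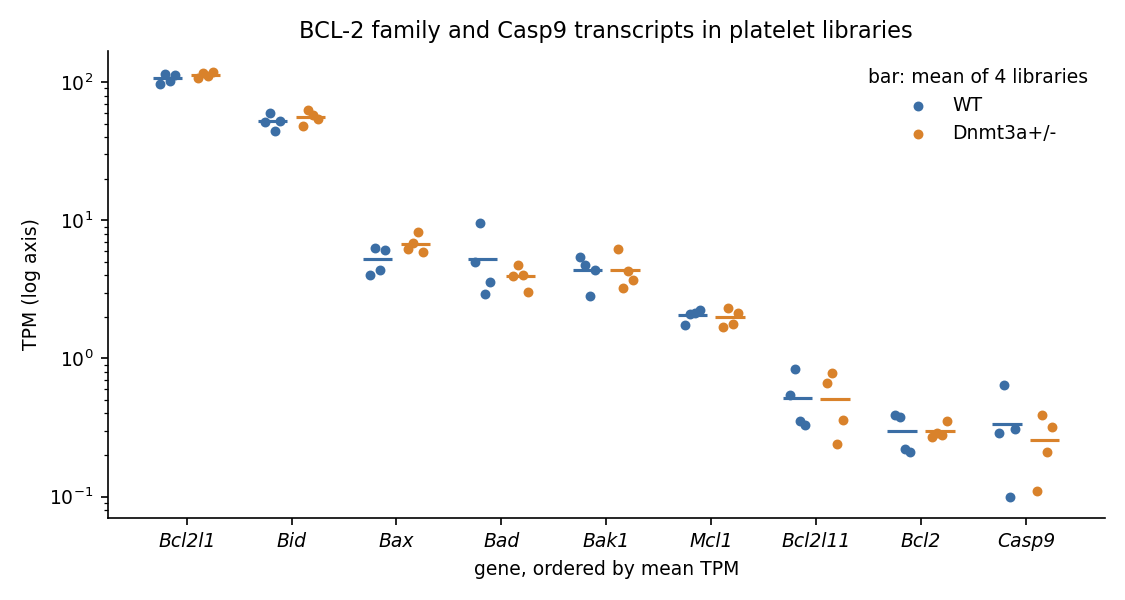
TPM of the 9 genes on a log axis, ordered by their mean. Each point is 1 library (WT in blue, libraries labelled Dnmt3a+/- in orange) and each bar is the mean of 4. Bcl2l1 and Bid stand clear of the other 7 genes in every library, and the groups overlap for every gene.

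No member passed the test between genotypes. In edgeR's quasi-likelihood test with Benjamini-Hochberg adjustment over 7362 genes, 0 of 9 were called at an adjusted p of 0.05, and the smallest adjusted p was 0.987. The same test called 0 of the 7362 genes, a background of 0.0%. At an unadjusted p under 0.05 the members numbered 0, against 362 genes or 4.92% of all tested. The number of members whose CPM did not overlap between the groups was 0, against 187 genes or 2.54% of all tested. DESeq2 and limma on log2 TPM also called 0 members. Log2 fold changes, given throughout as the libraries labelled Dnmt3a+/- minus WT, were positive for 5 members and negative for 4, with a median of 0.0074 beside -0.0050 over all genes tested. The p-values measure the spread between mice with 1 library each.

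Bcl2l1, on chromosome 2 from 152780668 to 152831728 (minus strand, GRCm38), encodes BCL-XL. It was at 96.96, 115.46, 101.5 and 113.25 TPM in WT replicates 1 to 4. The libraries labelled Dnmt3a+/- held 106.83, 115.79, 111.59 and 118.48 TPM in the same order. WT replicate 1 was the lowest and the library labelled Dnmt3a+/- replicate 4 the highest on this scale, and the groups overlapped. On the CPM scale the order of the libraries was different: WT held 181.5, 188.1, 182.3 and 171.5, and the other group 190.7, 181.9, 185.0 and 169.5. The 2 libraries numbered 4 were then the lowest of their groups. The 2 scales differ in the scaling of each library and in how the length of the transcripts assigned in it enters. The TPM that 1 CPM was worth moved between libraries by 1.31 times for Bcl2l1, and by 1.26 times for the platelet genes Ppbp and Gp9. The log2 fold change was 0.0074 (SE 0.08, adjusted p = 0.998 in edgeR), with a 95% interval for the fold from 0.887 to 1.14. From 2630 to 3906 counts per library, its coefficient of variation over the 8 libraries was 4.08% on the CPM scale, against 1.81% from counting alone, the lowest among the 9 genes.

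Mcl1 encodes the guardian MCL-1, a short-lived protein on which many blood cells depend (chromosome 3, 95658788 to 95663176, plus strand). WT libraries held 1.76, 2.10, 2.13 and 2.26 TPM. Those labelled Dnmt3a+/- held 1.70, 2.33, 1.78 and 2.15 TPM. High and low libraries were found in both groups, and the ranges overlapped. Its log2 fold change was -0.13 (SE 0.21, 95% interval -0.60 to 0.34). The ratio of Mcl1 to Bcl2l1 TPM averaged 0.0193 in WT and 0.0175 in the other group.

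Bcl2, the founding guardian of the family, lay at the bottom of the range (chromosome 1, 106538178 to 106714274, minus strand). WT libraries held 0.39, 0.38, 0.22 and 0.21 TPM, from 40, 41, 26 and 20 counts. The other group held 0.27, 0.29, 0.28 and 0.35 TPM, from 27, 29, 29 and 49 counts. WT replicates 1 and 2 were the highest and WT replicates 3 and 4 the lowest, so the other group lay inside the WT range. The log2 fold change was -0.04 (SE 0.26, 95% interval -0.61 to 0.52). Bcl2l1 supplied between 97.7% and 98.2% of the summed TPM of the 3 guardians in every library.

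Bak1 encodes BAK, the effector that BCL-XL restrains in platelets (chromosome 17, 27019810 to 27029009, minus strand). It was at 5.42, 4.73, 2.83 and 4.39 TPM in WT replicates 1 to 4. The libraries labelled Dnmt3a+/- held 6.18, 3.24, 4.32 and 3.72 TPM. Replicate 1 was the highest of each group and WT replicate 3 the lowest library, so the spread lay within the groups. The log2 fold change was -0.05 (SE 0.25, adjusted p = 0.998 in edgeR), with a 95% interval for the fold from 0.658 to 1.43. WT replicate 1 was also the library with the most red cell RNA, and WT replicate 3 that with the highest mitochondrial share; the part of either in the Bak1 values was not tested. The gene shares 9200 bases with Ggnbp1 on the opposite strand, which had 0 to 2 counts.

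Bax encodes the second effector, which acts beside BAK in most nucleated cells (chromosome 7, 45461697 to 45466898, minus strand). WT libraries held 4.01, 6.31, 4.40 and 6.13 TPM, from 46, 76, 47 and 55 counts. Those labelled Dnmt3a+/- held 6.18, 6.87, 8.17 and 5.87 TPM, from 69, 78, 104 and 74 counts. WT replicates 1 and 3 were the lowest of all, the library labelled Dnmt3a+/- replicate 3 was the highest, and the groups overlapped through WT replicates 2 and 4. Its log2 fold change of 0.47 (SE 0.23) was the largest among the 9, with a 95% interval for the fold from 0.979 to 1.96, and it did not pass the test (unadjusted p = 0.063, adjusted p = 0.987 in edgeR). The highest Bax level belonged to 1 of the 2 libraries labelled Dnmt3a+/- whose Dnmt3a level was not below the WT range. Without that library, replicate 3, the log2 fold change was 0.30 (unadjusted p = 0.204), and without replicate 4, the other such library, it was 0.62 (unadjusted p = 0.0147, adjusted p = 0.711 in edgeR). Without both, an alternative chosen after seeing the data, it was 0.48. Bax shares 915 bases with Gm45808 on the same strand, a gene with 0 to 4 counts.

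Bid was the second most abundant member (chromosome 6, 120891930 to 120916853, minus strand). Its product is a BH3-only protein that links death receptor signalling to the mitochondrion once caspase-8 has cut it. WT libraries held 51.22, 59.79, 44.55 and 52.46 TPM, and those labelled Dnmt3a+/- held 47.97, 62.57, 57.65 and 53.92 TPM. Replicate 2 was the highest in each group, WT replicate 3 was the lowest library, and the groups overlapped. Between the groups the log2 fold change was 0.06 (SE 0.09), with a 95% interval for the fold from 0.905 to 1.21. From 1402 to 2213 counts per library, its coefficient of variation was 7.18%, against 2.45% from counting alone. Bid overlaps Bcl2l13 on the opposite strand over 913 bases; that gene had 55 to 110 counts, and the sources used here do not state the strand setting of the counting.

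Bad encodes a BH3-only protein that 14-3-3 proteins hold in the cytosol while it is phosphorylated (chromosome 19, 6941861 to 6951899, plus strand). WT libraries held 4.99, 9.56, 2.92 and 3.58 TPM. The other group held 3.96, 4.73, 4.03 and 3.04 TPM. WT replicate 2 stood highest, at 112 counts, while WT replicate 3 was the lowest library, so WT alone spanned the whole range. The log2 fold change was -0.30 (SE 0.33, 95% interval -1.02 to 0.42), and without WT replicate 2 it was 0.0034. Bad shares 620 bases with Gpr137 on the opposite strand, a gene with 99 to 221 counts.

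Bcl2l11 encodes BIM, the BH3-only protein that can bind every guardian (chromosome 2, 128126038 to 128162547, plus strand). WT libraries held 9, 23, 14 and 12 counts, and those labelled Dnmt3a+/- held 24, 28, 8 and 21. On the TPM scale WT was at 0.54, 0.84, 0.35 and 0.33, and the other group at 0.66, 0.79, 0.24 and 0.36. The lowest library was the one labelled Dnmt3a+/- replicate 3, whose 8 counts have an exact 95% Poisson interval of 3.45 to 15.8. The log2 fold change was 0.41 (SE 0.42, 95% interval -0.51 to 1.34). On the TPM scale the group means were 0.515 and 0.512, and limma on log2(TPM + 0.5) with no filter gave -0.012, so the direction turned with the scale. An alternative chosen after seeing the data left out the 2 libraries labelled Dnmt3a+/- whose Dnmt3a level was not below the WT range. In the counts, the value was then 0.93 (unadjusted p = 0.045, adjusted p = 0.849 in edgeR).

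Casp9 encodes the initiator caspase of the pathway (chromosome 4, 141793612 to 141815976, plus strand). WT libraries held 7, 21, 6 and 13 counts, and those labelled Dnmt3a+/- held 6, 15, 8 and 24. In TPM these were 0.29, 0.64, 0.10 and 0.31 in WT and 0.11, 0.39, 0.21 and 0.32 in the other group. Both groups held libraries near the bottom and near the top of the range. The exact 95% Poisson interval of 6 counts was 2.20 to 13.1 and that of 24 counts was 15.4 to 35.7, for counting error alone. Its log2 fold change was 0.03 (SE 0.46, 95% interval -0.98 to 1.05).

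The members differed in how closely the 8 libraries repeated them. The coefficient of variation on the CPM scale was 20.4% for Bcl2, against 18.2% from counting alone, so that most of its spread was of the size counting gives. For Bak1 and Bax it was 28.2% and 28.5%, against 9.93% and 12.5% from counting. Bad had 37.8% against 13.7%, Mcl1 20.5% against 10.4%, and Bcl2l11 and Casp9 44.5% and 44.4% against 26.4% and 32.3%. The observed value exceeded that from counting for all 9, and by over 2 times for Bcl2l1, Bid, Bak1, Bax and Bad. The TPM that 1 CPM was worth also moved between libraries, by 1.27 to 1.62 times for 7 members and by 2.39 and 2.45 times for Bcl2l11 and Casp9, so the TPM of that pair in single libraries carries this added spread. For the 14 platelet markers it moved by 1.23 (Vwf) to 1.43 (Selp) times, so the low end of the member range was shared by genes outside the 9.

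The ratios of death-promoting to protective transcripts did not separate the groups. The ratio of Bak1 to Bcl2l1 TPM was 0.0559, 0.0410, 0.0279 and 0.0388 in WT replicates 1 to 4. It was 0.0578, 0.0280, 0.0387 and 0.0314 in the libraries labelled Dnmt3a+/-. Bcl2l1 thus outnumbered Bak1 in every library, replicate 1 had the highest ratio in each group, and the groups overlapped. The means were 0.0409 ± 0.0115 and 0.0390 ± 0.0134 (SD, n = 4 each), a log2 difference of -0.08 beside SDs of 0.41 and 0.46 on the log2 scale. Ratios combine members chosen with results known, so they are given without a test.

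The summed TPM of the 5 pro-apoptotic members, Bak1, Bax, Bad, Bid and Bcl2l11, over that of the 3 guardians was 0.668, 0.689, 0.530 and 0.578 in WT. It was 0.597, 0.660, 0.655 and 0.553 in the libraries labelled Dnmt3a+/-. WT replicates 2 and 3 held the highest and the lowest value, and the other group lay between them. The means were 0.616 ± 0.0748 and 0.616 ± 0.0510 (SD, n = 4 each), with a log2 difference of 0.0047. This sum was mostly Bid over Bcl2l1, since Bid made up between 73.6% and 80.9% of the pro-apoptotic sum. Without Bid the ratio was 0.140 ± 0.0347 in WT and 0.136 ± 0.0214 in the other group.

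Bax was also set against Bcl2l1 and against Bak1. WT libraries were at 0.0414, 0.0546, 0.0434 and 0.0541, and those labelled Dnmt3a+/- at 0.0578, 0.0593, 0.0732 and 0.0495. The library labelled Dnmt3a+/- replicate 4 lay inside the WT range and its 3 companions above it. The means were 0.0484 ± 0.0070 and 0.0600 ± 0.0098 (SD, n = 4 each), a log2 difference of 0.31 beside log2 SDs of 0.21 and 0.23. Bak1 and Bax summed over Bcl2l1 came to 0.0893 ± 0.0122 and 0.0990 ± 0.0174. Bax transcripts outnumbered those of Bak1 in 6 of 8 libraries: WT replicate 1 had a Bax to Bak1 ratio of 0.740 and the library labelled Dnmt3a+/- replicate 1 a ratio of 1.0. That ratio averaged 1.26 ± 0.357 in WT and 1.65 ± 0.486 in the other group (SD, n = 4 each), a log2 difference of 0.39, and the groups overlapped.

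**Figure D2:**
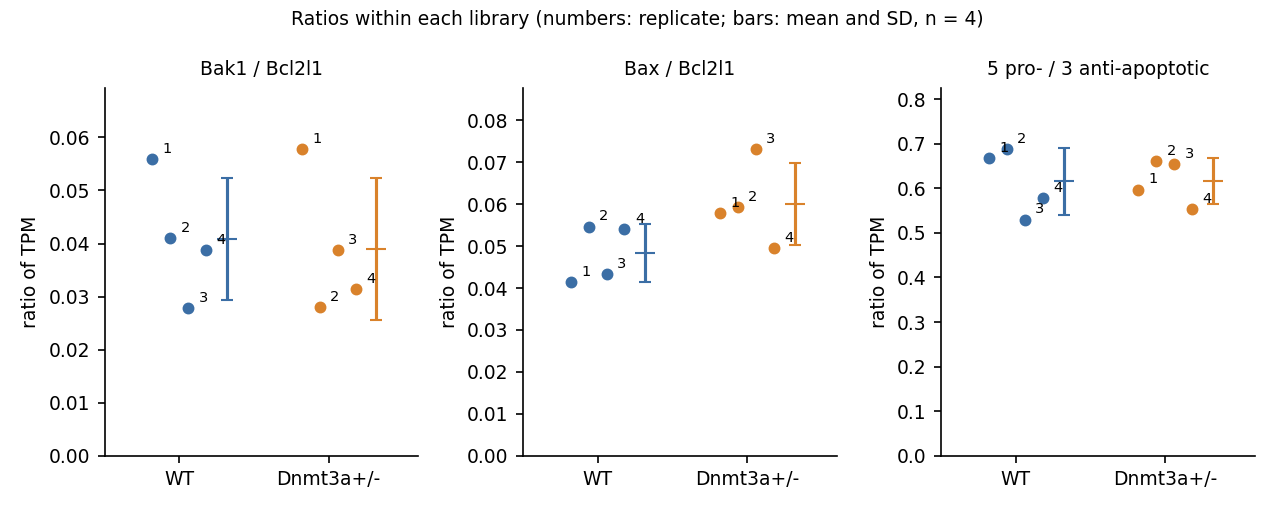
Ratios of TPM within each library, with axes from 0: Bak1 to Bcl2l1, Bax to Bcl2l1, and the 5 pro-apoptotic members to the 3 guardians. Points are libraries with their replicate numbers, and bars are mean and SD of 4. The groups overlap in all 3 panels.

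The wider apoptosis machinery was read from 52 further genes in 7 lists, of which 31 had enough counts to be tested. Called genes numbered 0 of 31, with 0 at an unadjusted p under 0.05 in edgeR, and log2 fold changes were positive for 16 and negative for 15, with a median of 0.0047 beside -0.0050 for all genes tested. Other guardians were scarce. Bcl2a1a, Bcl2a1c and Bcl2a1d were at 0 in every library, which allows up to 3 counts in each, and Bcl2a1b had at most 1 count. These A1 genes are near-identical copies, so reads shared between them may be split or lost. Only Bcl2l2, the gene of BCL-W, was tested among the 6, at a mean of 4.62 TPM and a log2 fold change of -0.0028. That level exceeded the mean of Mcl1 and of Bcl2.

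Other death-promoting family members were also scarce. Hrk was at 0 in all libraries, Bok, a relative of BAK and BAX, had 0 to 7 counts, and the p53 targets Bbc3 and Pmaip1, the genes of PUMA and NOXA, had 1 to 6 and 0 to 3. Bmf had 0 to 5 counts and Bik 0 to 2. Of the 8 genes in that list 2 were tested, 1 with a positive and 1 with a negative fold change. Bnip3l, the gene of the mitophagy receptor NIX, was the abundant one, at 948 ± 63.8 TPM in WT and 1037 ± 109 in the other group (SD, n = 4 each), with a log2 fold change of 0.08 (SE 0.11). NIX clears mitochondria in maturing red cells and is also present in platelets. All 8 libraries lay between 878 and 1163 TPM, among them WT replicate 1 with its high red cell RNA. The part of red cell RNA in the Bnip3l values was not tested.

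Downstream of the mitochondrion the apoptosome genes were at low levels. Apaf1, which builds the apoptosome with Casp9, averaged 0.31 TPM from 14 to 45 counts, close to the mean of 0.30 TPM for Casp9. Cycs, the cytochrome c gene, averaged 3.28 TPM. Casp6, the gene of an effector caspase, averaged 23.8 TPM, while Casp8, the initiator that cuts BID, had 4 to 23 counts. Of the 5 genes in this list 4 were tested, 3 with a positive fold change and 1 with a negative one, and a median of 0.21.

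Among the inhibitors of apoptosis, Birc2 averaged 195 TPM and Xiap 23.9 TPM, with log2 fold changes of 0.15 (SE 0.21) and -0.04. The list joined inhibitors with their antagonists, and 6 of its 7 genes were tested. Fold changes were positive for 2 and negative for 2 of the 4 inhibitors, and negative for both antagonists, Diablo and Htra2, whose products counteract inhibitors. Among outer membrane genes, the channels Vdac3, Vdac1 and Vdac2 averaged 325, 221 and 19.1 TPM, and Mtch2, the receptor for truncated BID, averaged 14.8. Of the 6 listed 4 were tested, with 1 positive fold change and 3 negative. VDAC2 is known to hold BAK at the membrane.

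The regulators included Ywhah, the most abundant gene of the 7 partner lists. The 14-3-3 genes, whose products bind phosphorylated BAD, were led by Ywhah at 4174 ± 511 TPM in WT and 4597 ± 632 in the other group (SD, n = 4 each), followed by Ywhaz at a mean of 498 TPM, Ywhae at 55.2, Ywhab at 31.4 and Ywhag at 13.2. Ywhah ranked 35 among the 18576 genes. Akt2, a kinase of the family that phosphorylates BAD, averaged 103.5 TPM, and Usp9x, which spares MCL-1 from degradation, averaged 10.1. Of 16 regulators 13 were tested, 8 positive and 5 negative, with a median of 0.07. Trp53, which drives several BH3-only genes in nucleated cells, had 2 to 12 counts.

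**Figure D3:**
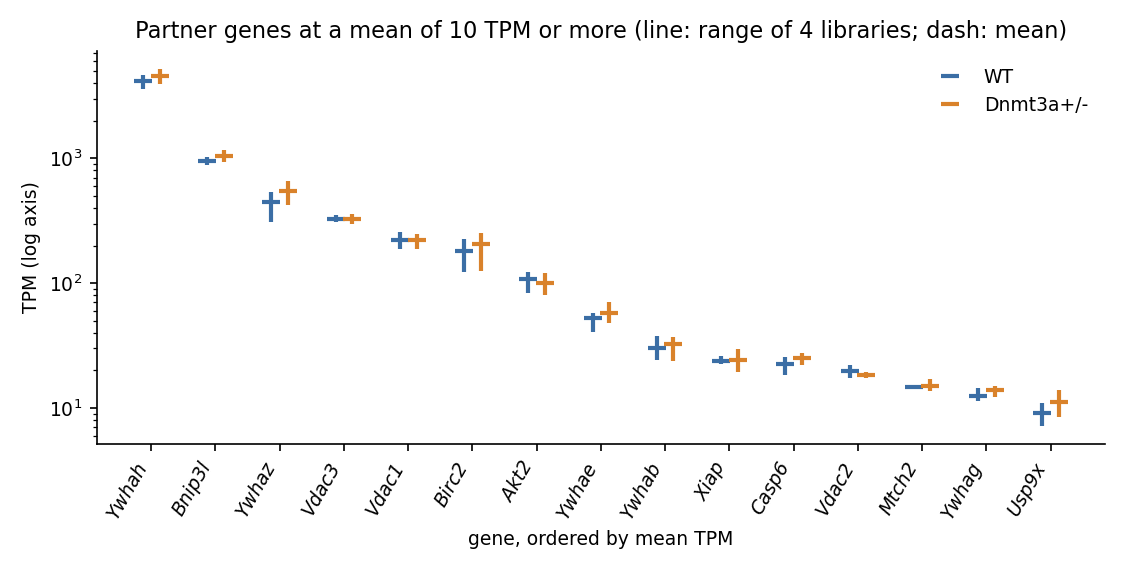
The 15 partner genes at a mean of 10 TPM or more, on a log axis and ordered by mean. Lines span the 4 libraries of a group and dashes mark the mean, with WT in blue and libraries labelled Dnmt3a+/- in orange. Ywhah and Bnip3l lead, at means of 4385 and 992.5 TPM.

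Groups that did not overlap on the CPM scale were found for 2 of the 31 partner genes, or 6.45%, beside 2.54% of all genes tested. They were Foxo3, higher in the group labelled Dnmt3a+/-, and Akt1, lower. Foxo3 and Akt1 are named after their values were seen. Foxo3, a transcription factor that can drive Bcl2l11, averaged 21.0 ± 3.47 CPM in WT and 25.9 ± 2.57 CPM in the group labelled Dnmt3a+/- (log2 fold change 0.31, SE 0.15). Akt1, whose kinase can inactivate FOXO3 and BAD, averaged 7.22 ± 0.596 CPM in WT and 5.72 ± 0.788 CPM in the other (log2 fold change -0.34, SE 0.15). Neither passed the test at an adjusted p of 0.05 in edgeR, and on the TPM scale the groups overlapped for both.

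**Figure D4:**
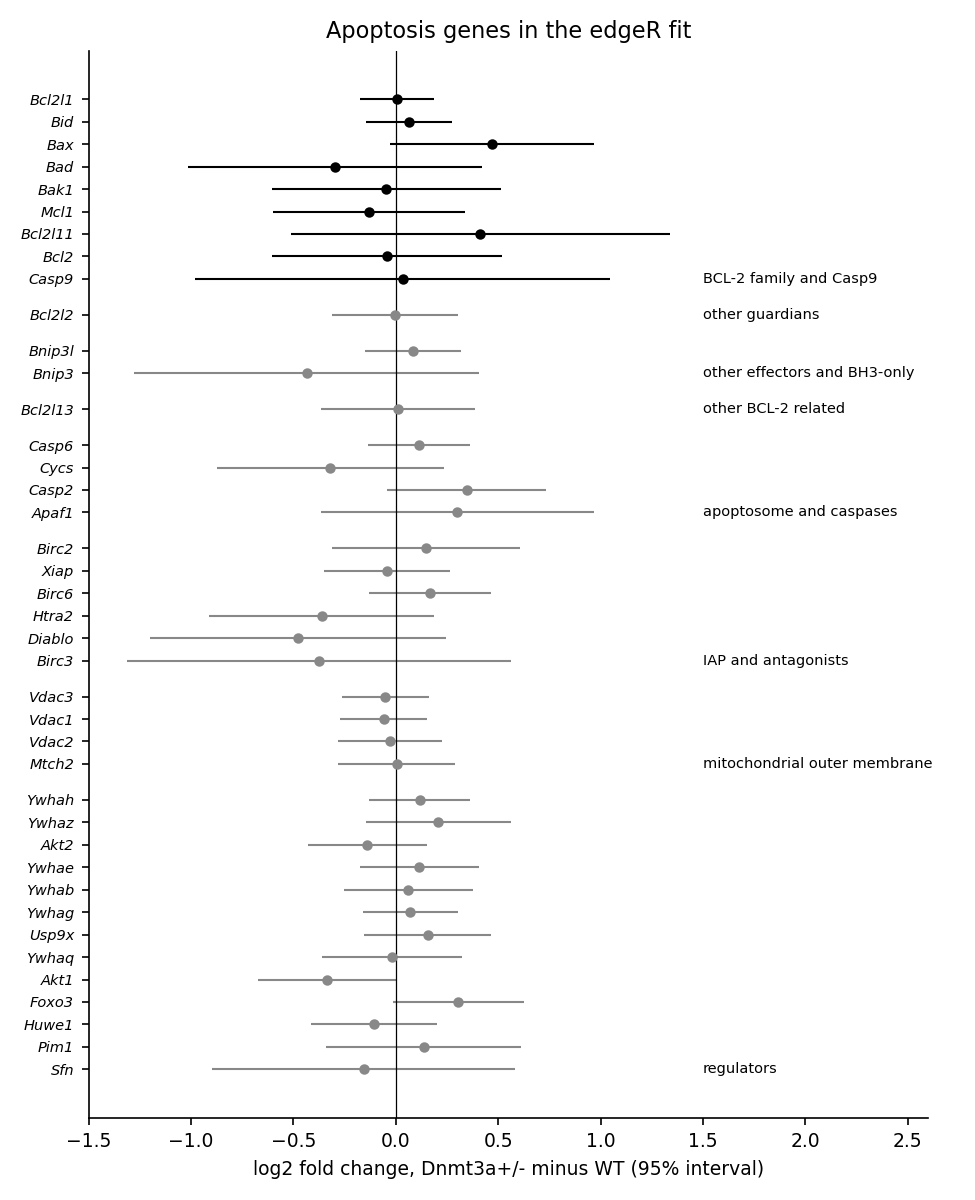
Log2 fold changes, libraries labelled Dnmt3a+/- minus WT, with 95% intervals from edgeR, for the 9 members (black) and the 31 tested partner genes (grey) by list. Members run from -0.30 for Bad to 0.47 for Bax, and all 9 of their intervals include 0.

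The library profiles of the guardian and of the effector were compared with those of other genes, over 8 libraries and by Pearson's r of log2 CPM. The 8 points share 2 genotypes and the composition of each preparation. The highest r among many genes over 8 points can be high by chance, and that level was not estimated. Among 2741 genes at a mean of 10 CPM or more, the 5 most like Bcl2l1 were Rbm38 (r = 0.95, Spearman's rho 0.83), Ehbp1l1 (r = 0.94), Rpl37 (r = 0.92), Csnk2b (r = 0.92) and Twf2 (r = 0.90). The Bcl2l1 values span a narrow range, and without the 2 libraries farthest from its median the same r were 0.87, 0.64, 0.65, 0.69 and 0.66. Rbm38 encodes an RNA-binding protein, Csnk2b the regulatory subunit of casein kinase 2 and Twf2 the actin regulator twinfilin-2. Rpl37, a ribosomal protein gene, has processed pseudogenes, so its counts are uncertain. Bcl2l1 and Bak1 had r = 0.35 with each other, and Bcl2l1 and Bad 0.74.

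Bak1 followed a more pronounced pattern, high in both libraries numbered 1. The red cell list was also highest in those 2 libraries, at 46890 TPM in WT replicate 1 and 10970 TPM in the one labelled Dnmt3a+/-, and so were the summed lymphocyte markers, at 26.3 and 24.9 TPM; their part in the Bak1 pattern was not tested. The 5 genes most like it among 2742 were Elovl1 (r = 0.997, rho 1.0), Eif2ak1 (r = 0.99, rho 1.0), Cd93 (r = 0.98), the pseudogene Ap2m1-ps (r = 0.97), whose reads may come from its parent gene, and Sh2b3 (r = 0.97). Elovl1 encodes a fatty acid elongase, Eif2ak1 the haem-regulated kinase of translation, and Sh2b3 the adaptor LNK, a brake on thrombopoietin signalling. Without the 2 libraries farthest from the Bak1 median, which were the 2 numbered 1, the r were 0.995, 0.93, 0.87, 0.88 and 0.78. With the 14 platelet markers Bak1 had a median r of 0.78, from -0.09 for Ppbp to 0.95 for Selp, the gene of P-selectin. Without the 2 farthest libraries the median over these 14 was 0.45, from -0.30 for Tubb1 to 0.82 for Selp. Itgb3, the gene of integrin beta 3, had r = 0.94 over 8 libraries and 0.60 without those 2. With 10 red cell genes the median r was 0.70, and without the same 2 libraries it was -0.28, from -0.83 to 0.27. Those 2 also held the most red cell RNA, so leaving them out removed that excess too. The lower r is therefore no test of red cell RNA in the Bak1 values. For Bcl2l1 the medians over 8 libraries were 0.36 with platelet markers (-0.32 to 0.86) and 0.14 with red cell genes (0.009 to 0.62). Without the 2 libraries farthest from the Bcl2l1 median they were 0.23 and -0.28. In WT replicate 1 the red cell list stood 2.38 above its mean over the 8 libraries on the log2 scale. Bcl2l1 stood 0.002 above its own mean there, and the part of red cell RNA in its values was not tested.

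**Figure D5:**
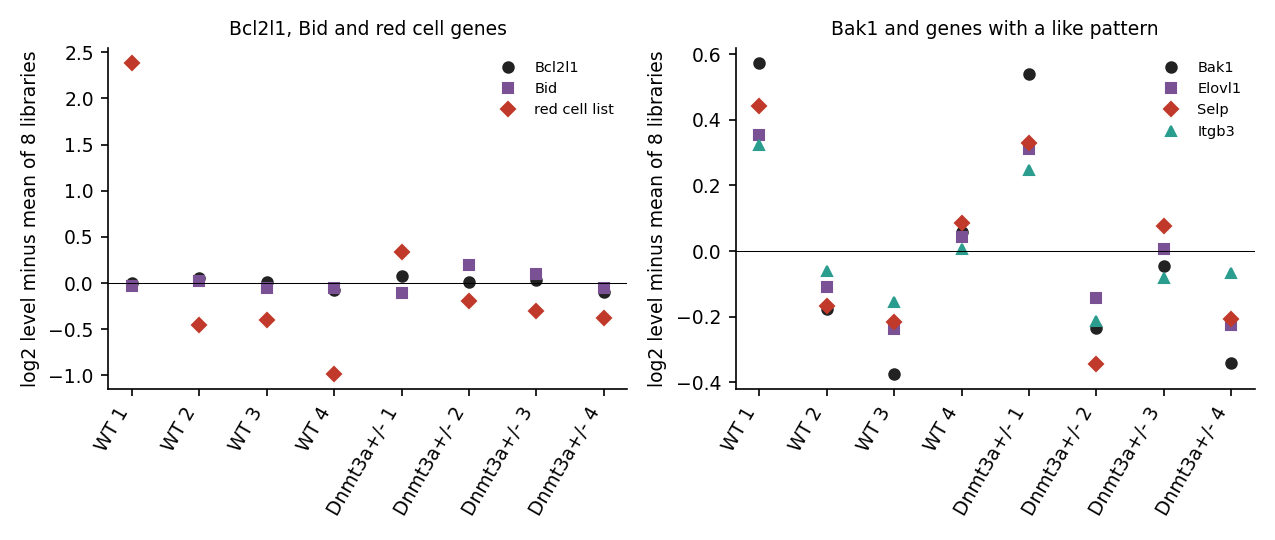
Log2 level minus the mean of the 8 libraries, for each library. At left, Bcl2l1 and Bid stay near 0. The red cell list reaches 2.38 in WT replicate 1 and 0.33 in the library labelled Dnmt3a+/- replicate 1. At right, Bak1, Elovl1 and the 2 platelet markers with the highest r, Selp and Itgb3, are highest in both libraries numbered 1.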

How the data were processed

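Platelet RNA of 4 WT and 4 Dnmt3a+/- mice was sequenced, 1 library per mouse, from stranded libraries of polyadenylated RNA, per the labels' protocols. The authors deposited an estimated count (whole numbers) and a TPM for each of 55487 genes. The tools named in the submitters' processing notes are RSEM, STAR, cutadapt and DESeq2, with build mm10; the sources used here state no versions, annotation or strand setting. For 86 genes no symbol was found. Coordinates come from GENCODE M21 (GRCm38) and promoter windows from RefSeq (GRCm38.p6).

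All genes were fitted together in edgeR 4.0.16 under R 4.3.3: TMM factors (0.918 to 1.07), glmQLFit with glmQLFTest after filterByExpr (count of at least 10, total of at least 15, by group), Benjamini-Hochberg over 7362 genes at 0.05. The common dispersion was 0.0613. Ratios were taken from TPM within a library. The lowest chi-square per degree of freedom between any pair of libraries was 10.3, and each counted as 1 replicate. The scripts were tested on simulated data. Alternatives were RLE and upper-quartile factors, other filters, robust edgeR, DESeq2 1.42.0, limma 3.58.1 on log2(TPM + 0.5) or + 0.1 with a mean TPM of at least 1 or no filter, a replicate block and leaving out libraries.

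The members and gene lists were chosen with earlier results of these data known. By rule, the text names all members, partner genes at 10 TPM or more, and the 5 genes most like Bcl2l1 and Bak1. Partner genes below 10 TPM, among them Bcl2l2, Cycs, Apaf1, Casp8, Diablo, Htra2 and Trp53, are named outside this rule. Marker lists for platelets, red cells, lymphocytes, myeloid cells and hepatocytes were summed. Some genes of the pathway are not reported here. Poisson intervals and floors cover counting error only.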

Additional observations from a re-analysis of the deposited data

Results flagged for a closer look

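Of 40 groups of 4 libraries examined, 1 held a value set apart from the other 3. The 40 counted each gene on both the CPM and the TPM scale, along with the Bak1 to Bcl2l1 ratio and the summed ratio. Bcl2 was at 2.127 CPM in the library labelled Dnmt3a+/- replicate 4, the highest of its group, while the other 3 lay between 1.759 and 1.796 CPM. The gap made up 0.900 of the group's range, above Dixon's critical value for 4 samples. Chance flags about 1 in 20 groups, and this group is set apart because its other 3 values lie close together. The value rests on 49 counts in the deepest library, and it lies inside the WT range of 1.304 to 2.548 CPM. On the TPM scale the same group, at 0.27, 0.29, 0.28 and 0.35 in replicates 1 to 4, was not flagged.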

How the results depend on the processing

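Members called numbered 0 in all 19 alternatives, with a lowest adjusted p of 0.707; the strict filter (at least 10 CPM in 4 libraries) kept only 2 members. Over all genes, edgeR called 0, and 250 with no filter (246 lower in the group labelled Dnmt3a+/-), 15 with DESeq2, 1 with robust dispersion, from 0 to 135 on leaving out 1 library (135 without WT replicate 1, the library with the most red cell RNA), and 1 without Dnmt3a+/- replicates 3 and 4 together, added after seeing the data. Member fold changes changed sign in 25 of 158 values: Bcl2l1 was -0.018 under the strict filter; Bak1 was 0.0028, 0.0035 and 0.0028 in limma with pseudocounts of 0.5 and 0.1 and with no filter, where Bcl2 was 0.0026, Bcl2l11 -0.012 and Casp9 -0.12. Without replicates 3 and 4, Bak1 was 0.15, Mcl1 0.016 and Casp9 -0.071. Leaving out 1 library gave Bcl2l1 -0.012 to 0.039, Bak1 -0.26 to 0.17, Bax 0.30 to 0.62, Bcl2 -0.18 to 0.12, Mcl1 -0.26 to 0.017, Bad -0.50 to 0.0034, Bid -0.00065 to 0.12, Bcl2l11 0.16 to 0.67 and Casp9 -0.23 to 0.38. The cause was not tested. The log2 difference of the Bak1 to Bcl2l1 ratio ran from -0.29 to 0.082, and that of the summed ratio from -0.065 to 0.061, on leaving out 1 library; with Bak1 and Bax alone above the guardians it was 0.146. Same-numbered libraries of the groups correlated at -0.037, 0.081, 0.158 and -0.168, and 1 of 4 WT libraries and 0 of 4 others correlated best with its own number, so the numbers were not taken as pairs; with a replicate block edgeR called 0 genes and 0 members. Depth limits Bcl2l11 and Casp9 most, at 6 to 28 counts per library.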
